A study of Mus musculus with 15 samples.

Results

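The 939 regions described here held a Mel18 peak in mouse embryonic stem cells (ESCs) and, in mesoderm precursors made from them, a peak of Ring1b, of RYBP or of both, with no peak of Mel18 or Cbx2. Overlapping peaks of 5 lists (at least 1 bp shared) were merged into regions on chromosomes 1 to 19, without the start of chromosome 9, which gave 11853 regions. Of these, 5237 held an ESC Mel18 peak, and the 939 members were 17.9% of them. Members were chosen by the presence and absence of these peaks, so that pattern is a description and not a finding. Ring1b and RYBP were mapped only in mesoderm precursors, so whether either was already present at these regions in ESCs could not be tested, and the data do not show that it was kept.

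Polycomb repressive complex 1 (PRC1) is a family of repressors built around Ring1b, or its relative Ring1a, the enzyme that attaches ubiquitin to histone H2A. Canonical PRC1 holds a chromodomain subunit such as Cbx2, which reads the histone mark of the other Polycomb complex, together with the PCGF subunit Mel18 (Pcgf2) or Bmi1. Variant PRC1 holds RYBP or its relative Yaf2 in place of the chromodomain subunit, can bind without that mark, and can contain any of the PCGF proteins, Mel18 included. RYBP together with Ring1b, without Cbx2, is therefore the pairing known of variant PRC1, while a peak of either protein alone does not identify the complex.

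The series held 15 samples, of which the peak lists of 5 chromatin immunoprecipitation (ChIP-seq) samples were used. Undifferentiated E14Tg2A ESCs gave the ESC Mel18 list. The other lists, for Cbx2, RYBP, Ring1b and Mel18, came from mesoderm precursors (MES), early cells of the cardiac lineage obtained from that line. ESCs were grown with kinase inhibitors and LIF, and MES were induced with BMP4, for which the submitters favoured 0.1 to 0.3 ng/ml and described a strong dependence on dose and batch. Chromatin was precipitated with 5 ug of antibody, Mel18 with 1 antibody lot in both states and Ring1b with an antibody made by the submitters. All groups were unmodified cells, and no marker of either state could be checked, since no RNA sample was analysed here. The IgG sample of MES was also not analysed here. Each list came from 1 sample, read depth was unknown, and an absent peak means only that none passed the authors' caller. Ranges in parentheses are 95% intervals, exact (Clopper-Pearson) for shares and from order statistics for medians, and cover counting error only. Differences between lists have no replicate check, and no p-value is given. Neighbouring regions are not independent, so these intervals can be too narrow.

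Of the ESC Mel18 regions, 2569 of 5237 (49.1%) had neither MES Mel18 nor Cbx2. In 939 of these 2569 (36.6%) Ring1b, RYBP or both were present, and 1630 had no MES peak of any of the 4 subunits. Among all ESC Mel18 regions the shares were higher, at 61.8% with Ring1b and 59.7% with RYBP. Where MES Mel18 and Cbx2 were absent, Ring1b was found at 28.6% (26.9 to 30.4) and RYBP at 29.1% (27.4 to 30.9).

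The members fell into 3 groups. Both proteins were present at 545 members (58.0%, 54.8 to 61.2), Ring1b without RYBP at 191 (20.3%, 17.8 to 23.1), and RYBP without Ring1b at 203 (21.6%, with an upper bound of 24.4). The division depended on the score threshold. With the upper 50% of ESC Mel18, Ring1b and RYBP peaks by score and the full MES Mel18 and Cbx2 lists, 223 members were left, of which 98 (43.9%, 37.3 to 50.7) had RYBP alone and 88 (39.5%, 33.0 to 46.2) had both, with overlapping intervals. Among regions without MES Mel18 and Cbx2, RYBP was at 545 of 736 regions that had Ring1b (74.0%, 70.7 to 77.2) and at 203 of 1833 that lacked it (11.1%, 9.67 to 12.6). RYBP was more frequent without Ring1b where another subunit was present, at 41.4% (29.8 to 53.8) of 70 regions with MES Mel18 and no Cbx2 and at 61.8% (47.7 to 74.6) of 55 regions with Cbx2 and no MES Mel18. Where Ring1b was present those shares were 82.3 and 91.0%. With both MES Mel18 and Cbx2, RYBP was at 61.9% (45.6 to 76.4) of 42 regions without Ring1b. It was at 93.2% (92.0 to 94.3) of 2017 regions with Ring1b.

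Ring1b and RYBP were the more frequent the higher the ESC Mel18 peak had scored. The score is the authors' own value for a peak, of unstated scale, and was used here only to rank peaks within a list. A region took the score of its highest peak, and each list was divided into 4 quartiles by score. Of the regions without MES Mel18 and Cbx2, 215 of 1190 in the lowest ESC quartile (18.1%, 15.9 to 20.4) had Ring1b or RYBP. The share was 344 of 829 (41.5%, 38.1 to 44.9) in the second quartile and 283 of 436 (64.9%, 60.2 to 69.4) in the third. It was 97 of 114 (85.1%, 77.2 to 91.1) in the highest, and none of these 4 intervals overlapped another. The share with both proteins followed the same order, at 9.66, 23.8, 39.2 and 54.4%.

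**Figure D1:**
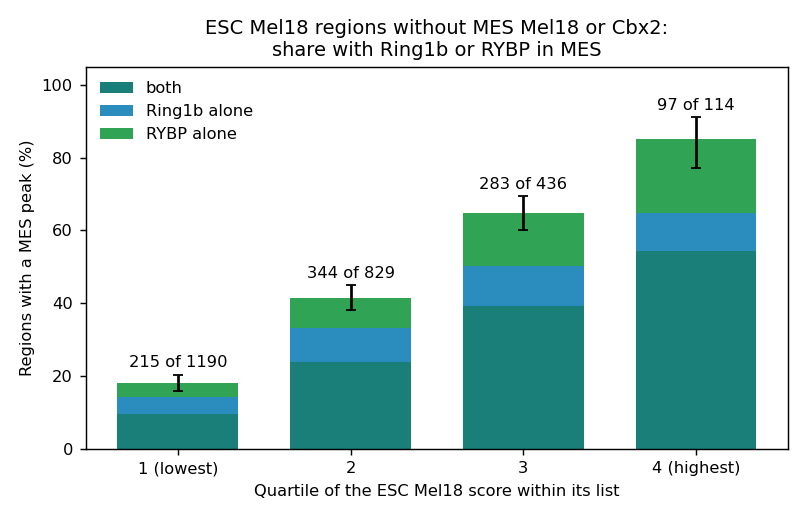
Share of ESC Mel18 regions without MES Mel18 and Cbx2 that had Ring1b and RYBP, Ring1b alone or RYBP alone in MES (y axis, percent), by quartile of the ESC Mel18 score (x axis). Bars carry exact 95% intervals for the sum of the 3 groups, which stood at 18.1% in the lowest and 85.1% in the highest quartile.

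ESC Mel18 peaks were also longer in the higher quartiles, and a longer peak can meet another by chance more easily. The part of length in the gradient was not tested. Within each quartile the members' ESC Mel18 peaks covered more bases than those of regions with no MES peak. In the lowest quartile the medians were 716 bp (693 to 742) against 558 bp (548 to 572), and in the third they were 1515 bp (1462 to 1582) against 1186 bp (1128 to 1302). In the highest quartile they were 2354 bp (2219 to 2571) against 2158 bp (1825 to 2833), with overlapping intervals and only 17 regions without a MES peak.

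As a share of all ESC Mel18 regions, members were most frequent in the middle of the ESC ranking. They were 15.7% of regions in the lowest quartile, 27.8% in the second, 22.1% in the third and 7.20% in the highest. Their median ESC score stood at percentile 44.0 (41.9 to 46.6) of its list, a score of 111. ESC Mel18 regions with no MES peak stood lower, with a median ESC score of 62.3, and the 1880 regions with peaks of all 5 lists at percentile 79.3 (78.3 to 80.6). The 288 regions that had Ring1b, RYBP and MES Mel18 without Cbx2 stood between the members and those with all 5, at percentile 60.5 (57.7 to 65.3). In those 288, the MES Mel18 peak itself ranked low in its list, at a median percentile of 29.8 (26.1 to 33.0) and with 3 peaks in the top quartile. In the lowest quartile were 120 of the 288. Such ranks do not show how near these peaks lay to the caller's threshold, since the scale of the score is unknown.

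**Figure D2:**
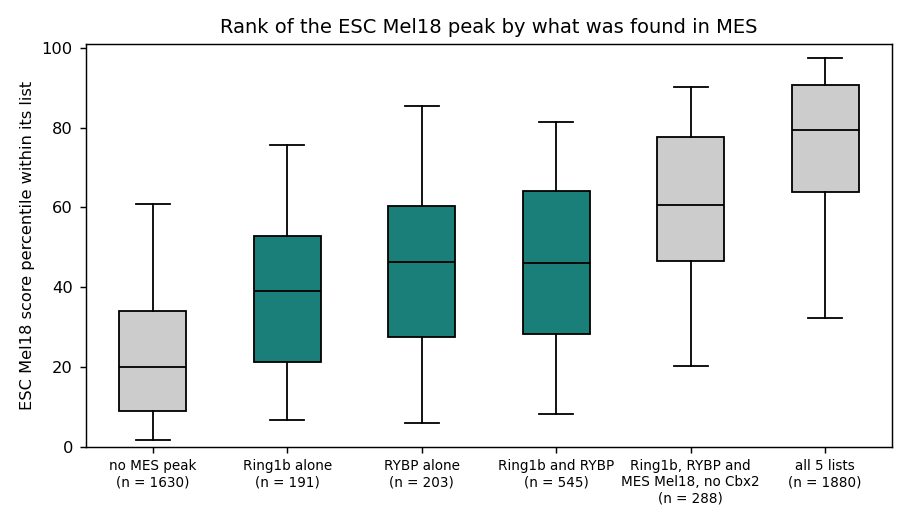
Percentile of the ESC Mel18 score within its list (y axis) for regions grouped by the MES peaks they held (x axis, with the number of regions). Boxes span the quartiles with the median as a line, whiskers run from the 5th to the 95th percentile of regions, and the members (green) had medians of 39.0 (Ring1b alone), 46.4 (RYBP alone) and 46.0 (both).

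Among the members, those with Ring1b alone had the lowest ESC percentile, at a median of 39.0 (33.0 to 43.5), against 46.4 (41.0 to 49.5) with RYBP alone and 46.0 (42.5 to 48.5) with both. The intervals overlapped. Larger gaps were seen in the MES peaks themselves. Ring1b peaks at members with both proteins stood at percentile 46.3 (43.4 to 49.9) of the Ring1b list, and those without RYBP at 28.8 (25.1 to 32.5). RYBP peaks stood at percentile 51.1 (47.7 to 54.0) with Ring1b and at 30.5 (27.1 to 36.1) without it. A peak found alone was thus mostly a weak one of its list, and whether its partner lay below the caller's threshold was not tested. Only 3 of the 191 Ring1b-alone members and 11 of the 203 RYBP-alone members had a peak in the top quartile. At the 545 with both, Ring1b reached it at 48 and RYBP at 99. Most of those 11 lay in the chromosome 15 run described below. Over all members RYBP was in its top quartile at 110 of 748, and outside that run at 103 of 732.

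MES peaks at members were weaker than at regions with all 5 lists, where Ring1b stood at percentile 85.8 (85.0 to 86.5) and RYBP at 77.6 (76.2 to 79.2). They resembled more the 1548 regions that had Ring1b and RYBP and no Mel18 in either state and no Cbx2. There Ring1b stood at percentile 44.7 (42.8 to 46.4) and RYBP at 42.7 (40.8 to 44.5), so the interval for Ring1b overlapped that of members with both and the interval for RYBP lay below it. At 130 of the 939 members (13.8%) a Ring1b or RYBP peak was in the top quartile of its list, and at 213 (22.7%) every such peak was in the lowest. Both proteins reached the top quartile at 31 of 545 members (5.69%). These combined shares were counted at members only. Taken singly, Ring1b was in its top quartile at 6.93% of members that had it, against 48.1% of all ESC Mel18 regions that had it. For RYBP the shares were 14.7 and 40.1%.

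Scores of the proteins went together less at members than at regions with all 5 lists. Over the 545 members with both, Spearman's rho across regions was 0.14 between ESC Mel18 and Ring1b, 0.18 between ESC Mel18 and RYBP, and 0.47 between Ring1b and RYBP. Over the 1880 regions with all 5 lists it was 0.70, 0.46 and 0.59. At members with a single protein it was -0.12 for Ring1b (191 regions) and 0.29 for RYBP (203 regions). The RYBP value includes 16 neighbouring regions of the chromosome 15 run described below, and no value without them was computed. Regions share libraries, list thresholds and, outside the RYBP list, a pile-up of scores at 3100, and a difference between these correlations was not tested.

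Members were mid-sized regions. Their median width was 1666 bp (1614 to 1729), with 50% of regions between 1312 and 2104 bp, against 660 bp for ESC Mel18 regions with no MES peak and 3878 bp for those with all 5 lists. Members with both proteins had a median of 1849 bp, those with RYBP alone 1572 bp, and those with Ring1b alone 1277 bp. A merged width grows with the number of lists that enter it, so the bases of the ESC peak alone are the fairer measure. ESC Mel18 covered a median of 1103 bp (1063 to 1160) over all members. The median was 660 bp (641 to 677) at regions with no MES peak and 2404 bp (2339 to 2492) with all 5 lists. Among members it was 1210 bp (1132 to 1281) with both proteins. With RYBP alone it was 1074 bp (967 to 1173), and with Ring1b alone 945 bp (888 to 1038). The narrowest member, chr8:122136323-122136857, spanned 535 bp and held an ESC Mel18 peak of 417 bp and a Ring1b peak of 486 bp. Only 9 members were wider than 5 kb, of which 5 lay in a single run on chromosome 15 described below.

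The rule asks for overlapping peaks, so that some MES peak lay on the ESC Mel18 peak was largely fixed by it, and the extent of the overlap is given as a description. At 896 of 939 members (95.4%) at least 50% of the ESC Mel18 bases were under Ring1b or RYBP, and under 10% at 3. A single ESC Mel18 peak was present at 864 members. The centre of the Ring1b peak lay a median of 193 bp (175 to 212) from the centre of the ESC Mel18 peak, and that of the RYBP peak 217 bp (197 to 244). Ring1b and RYBP centres were 145 bp apart (134 to 163), against 281 bp (264 to 302) at the broader regions with all 5 lists. Of the 545 members with both, 523 (96.0%) had a base that ESC Mel18, Ring1b and RYBP all covered. At 19 of them the ESC Mel18 peak met RYBP only, and at 2 it met Ring1b only.

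RYBP covered more of the ESC Mel18 bases than Ring1b did. Over all members RYBP lay on 68.9% and Ring1b on 56.0% of the ESC Mel18 bases, and either protein on 84.3%. Without the chromosome 15 run described below, which has RYBP and no Ring1b peaks, RYBP lay on 68.3% and Ring1b on 60.0%. At members with both, RYBP lay on 83.0% and Ring1b on 73.0%. The order was the other way at regions with all 5 lists, where RYBP lay on 76.3% and Ring1b on 92.4%.

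The same contrast appeared in peak length. At the 545 members with both proteins RYBP peaks had a median length of 1.17 times that of Ring1b (1.13 to 1.20), and was the longer at 397 (72.8%, 68.9 to 76.5). At regions with all 5 lists the ratio was 0.809 (0.794 to 0.821). With MES Mel18 and no Cbx2 it was 1.03 (0.980 to 1.07), and with Cbx2 and no MES Mel18 1.10 (1.04 to 1.21), over 122 regions. Regions with Ring1b and RYBP only, without Mel18 in either state, had a ratio of 1.15 (1.13 to 1.17), close to that of the members. The high ratio is therefore not particular to sites with earlier Mel18.

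Because the groups differed in width, the ratio was also compared within bins of merged width, a split chosen after the data were seen. Merged width is built from the Ring1b and RYBP peaks themselves and, at regions with all 5 lists, also from MES Mel18 and Cbx2 peaks. A change of the ratio with width can therefore be partly built in, and an equal width does not make the groups alike. It rose with width at members with both and at regions with Ring1b and RYBP only, and fell with width at regions with all 5 lists. Between 2 and 3 kb it was 1.22 (1.16 to 1.31) over 174 members with both and 0.904 (0.882 to 0.942) over 451 regions with all 5 lists. Between 3 and 5 kb it was 1.34 (1.16 to 1.67) over 37 members and 0.837 (0.820 to 0.860) over 703 regions. Below 1.5 kb the intervals overlapped, at 1.09 (1.04 to 1.14) over 129 members and 0.953 (0.847 to 1.12) over 22 regions. Among regions of the lowest ESC score quartile the ratios were 1.23 (1.14 to 1.35) and 1.06 (0.969 to 1.16), with intervals that overlapped slightly. In the highest quartile they were 1.18 (1.03 to 1.28) and 0.754 (0.735 to 0.771). These lengths come from 2 lists of unknown depth, called separately, so a ratio above 1 does not by itself show that RYBP was bound over more DNA.

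**Figure D3:**
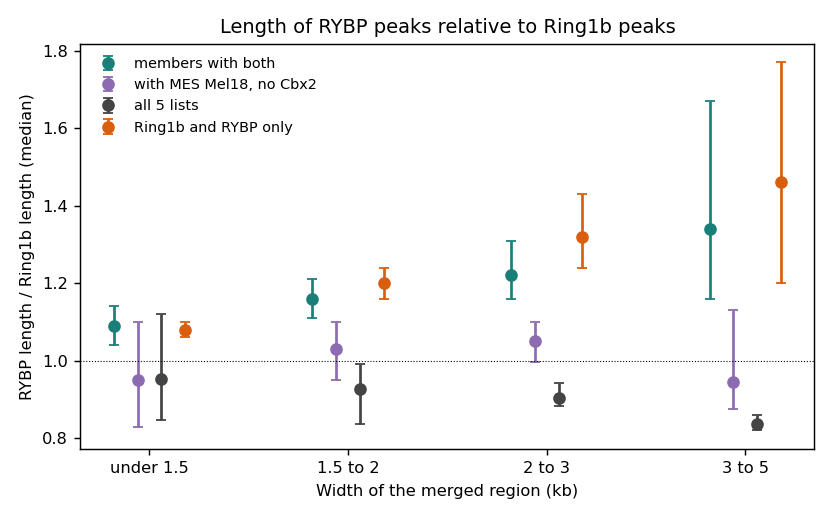
Median ratio of RYBP to Ring1b peak length (y axis, with 95% order-statistic intervals) by width of the merged region (x axis, kb), for members with both proteins and 3 comparison groups. Members lay above 1 in each bin, from 1.09 to 1.34, and regions with all 5 lists fell to 0.837 between 3 and 5 kb.

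The members with the highest ESC Mel18 scores show how the peaks were arranged. For each group the 5 highest outside the chromosome 15 run were taken, and they are given by mm9 coordinates because no annotation of that build was used. The highest with both proteins, chr13:115245755-115251361, was a single ESC Mel18 peak of 5607 bp with a score of 3100, a value shared by 289 peaks of that list. A RYBP peak of 3592 bp lay in its middle, and a second RYBP peak of 825 bp and a Ring1b peak of 777 bp lay together at its right end. RYBP covered 78.8% and Ring1b 13.9% of its ESC Mel18 bases, and the nearest MES Mel18 or Cbx2 peak was 1161616 bp away.

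At the other members of this set, Ring1b and RYBP formed 1 peak each, one on top of the other inside a longer ESC Mel18 peak. At chr3:53458438-53462870 the Ring1b peak of 2019 bp and the RYBP peak of 2083 bp each covered under 50% of the ESC Mel18 bases (45.5 and 47.0%). At chr9:8899626-8902781 the ESC Mel18 peak was at percentile 92.6 of its list, while Ring1b was at 1.28 and RYBP at 24.2 of theirs. At chr3:130807770-130811677 the values were 92.5 for ESC Mel18, 57.7 for Ring1b and 55.7 for RYBP. At chr14:117324065-117327244 they were 92.0, 73.5 and 59.2, the highest Ring1b rank of the set. None of the MES peaks of these 5 members reached the top quartile of its list.

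Among members with Ring1b alone, chr7:139506758-139509344 had the highest ESC percentile, at 93.5, and its Ring1b peak at percentile 59.6 covered 88.9% of the ESC Mel18 bases. At chr9:118395262-118399007 Ring1b was at percentile 40.9 and covered 48.7%, and a MES Mel18 or Cbx2 peak lay 5645 bp away, the closest for any of these 15 members. At chr15:56523608-56526834 a pair of Ring1b peaks at percentiles 5.22 and 18.8 lay at the left side of the ESC Mel18 peak. The remaining ones, chr2:98503674-98504370 and chr4:70038763-70039673, were narrow, at 697 and 911 bp, with ESC and Ring1b peaks of almost the same extent. The stretch on chromosome 2 is known for signal in many unrelated mouse ChIP-seq experiments. The IgG sample was not used here, so whether the peaks there reflect binding was not tested.

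At the 5 members with RYBP alone, which were taken for their ESC Mel18 scores, RYBP stood in the lower 50% of its list. At chr3:148650117-148654015 the ESC Mel18 peak was at percentile 94.4 and RYBP at 40.5, and RYBP covered 39.6% of the ESC bases. At chr4:100448568-100451681 the percentiles were 92.3 and 15.5, and at chr18:32535984-32538798 they were 91.6 and 16.5. At chr12:28025094-28028883 they were 89.8 and 48.2, and at chr3:49559820-49561578 they were 84.1 and 25.1. Past the first of these, RYBP covered 70.6 to 84.9% of the ESC Mel18 bases. In each of the 5 the RYBP peak was shorter than the ESC Mel18 peak and lay across its centre.

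**Figure D4:**
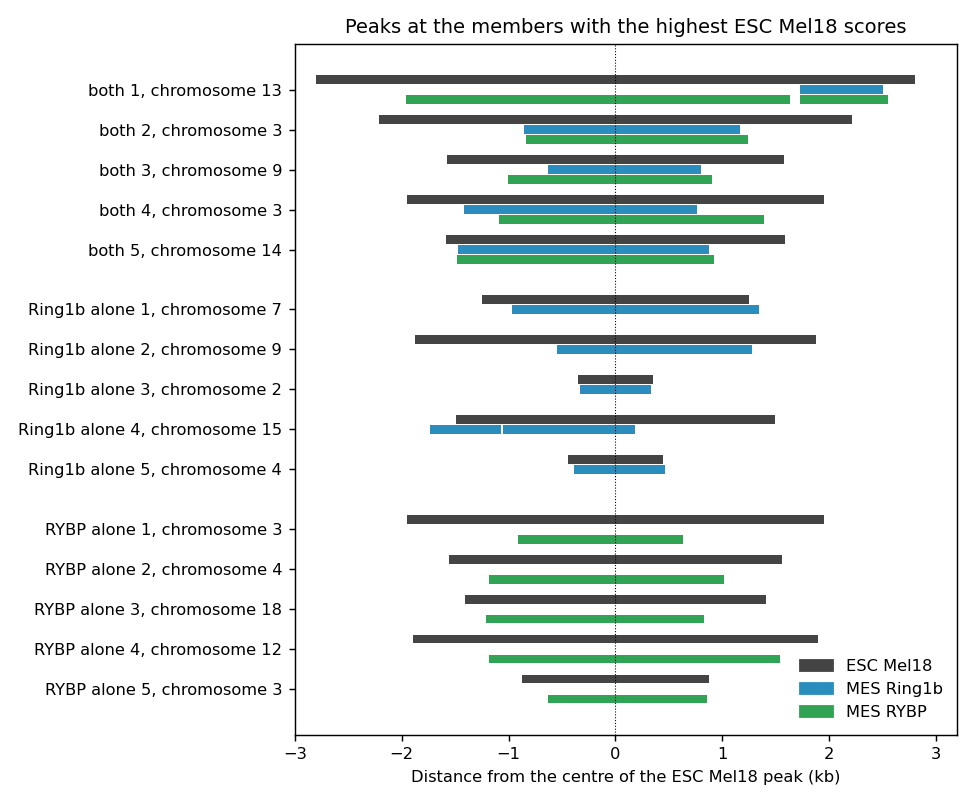
Extent of ESC Mel18, MES Ring1b and MES RYBP peaks (bars) at the 5 members of each group with the highest ESC Mel18 scores outside the chromosome 15 run, as distance in kb from the centre of the ESC Mel18 peak (x axis). MES peaks lay mostly inside the ESC Mel18 peak, and at the first member Ring1b was confined to its right end.

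One stretch stood apart from the rest. On chromosome 15 a run of 16 members with gaps of at most 10 kb spanned chr15:102739698-102872665, or 133 kb, and it was the only run of 5 or more members. This stretch is known to hold the Hoxc cluster, whose homeobox genes pattern the body axis and are classical Polycomb targets. All 16 members had RYBP and none had Ring1b. ESC Mel18 peaks covered 69.4% of the run (24 peaks) and RYBP peaks 52.6% (25 peaks), while MES Mel18, Cbx2 and Ring1b had 0 peaks in it.

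Unlike most members with RYBP alone, several of those in the run had high scores in both lists. Of all ESC Mel18 peaks in the span of the run, 13 of 24 were in the top quartile, as were 11 of 25 RYBP peaks. These counts include peaks that lay between the members. The RYBP peaks of the span had a median percentile of 66.9. The widest member, chr15:102779725-102798888, spanned 19164 bp, had the highest ESC score of the run and a RYBP peak at percentile 99.6, and RYBP covered 73.4% of its ESC Mel18 bases. At chr15:102763873-102771242 RYBP was at percentile 98.2 and covered 96.9%, and at chr15:102839370-102847996 it was at 96.9 and covered 86.9%. At the lower end, chr15:102836991-102839253 had a RYBP peak at percentile 4.38 that covered 35.6%. The run held 11 of the 23 members with RYBP alone in the top ESC quartile (47.8%, 26.8 to 69.4). It did not carry the totals, since without it 187 of 923 members (20.3%) had RYBP alone.

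MES Mel18 and Cbx2 peaks lay close to the run on the left, and Ring1b did not. On that side, the nearest MES Mel18 peak ended 1756 bp and the nearest Cbx2 peak 3562 bp before the run, while the nearest Ring1b peak was 160446 bp away. To the right, Cbx2 resumed 2166 bp, Ring1b 8719 bp and MES Mel18 12743 bp beyond its end. A second stretch of Mel18, Cbx2, Ring1b and RYBP peaks, where ESC Mel18 was again present, began within 20 kb to the right. Peak calls give no coverage, so a low signal of Ring1b, Mel18 or Cbx2 within the run could not be told apart from none.

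**Figure D5:**
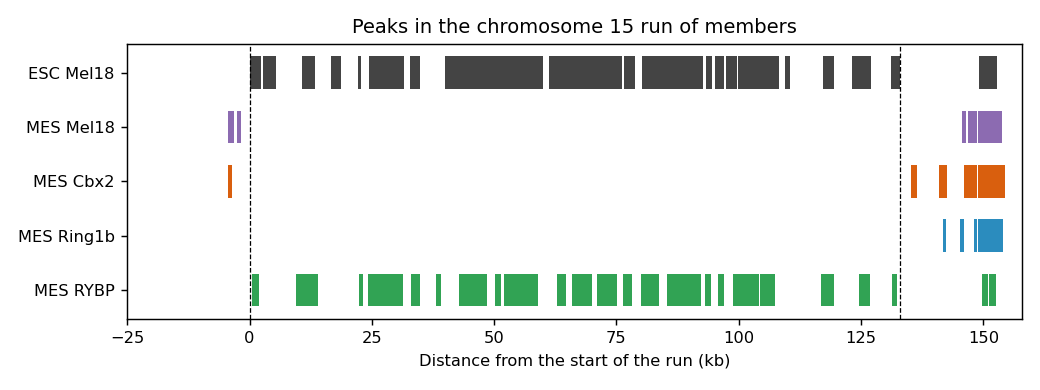
Peaks of the 5 lists (rows) in the chromosome 15 run and 25 kb on either side, as distance in kb from the start of the run (x axis), with dashed lines at its ends. ESC Mel18 peaks cover 69.4% and MES RYBP peaks 52.6% of the 133 kb between the lines, where MES Mel18, Cbx2 and Ring1b had 0 peaks.

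Elsewhere members were scattered. Outside the run 42 of 923 members (4.55%, 3.30 to 6.10) had another member within 10 kb. By chromosome, members were between 13.1% (8.87 to 18.4) of ESC Mel18 regions on chromosome 18 and 24.7% (19.6 to 30.4) on chromosome 15, where the share was 19.8% (15.1 to 25.4) outside the run. The intervals of chromosomes 15 and 18 overlapped only without the run.

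Most members were far from remaining Mel18 and Cbx2. The nearest MES Mel18 or Cbx2 peak lay a median of 140909 bp away (126688 to 155460), against 95831 bp (84812 to 104385) for ESC Mel18 regions with no MES peak and 119098 bp (108732 to 131009) for regions with Ring1b and RYBP only. Within 100 kb of such a peak lay 40.3% (37.1 to 43.5) of members and 51.4% (49.0 to 53.9) of regions with no MES peak. Within 5 kb lay 40 members (4.26%, 3.06 to 5.76) and 135 regions with no MES peak (8.28%, 6.99 to 9.73). Distances of all these groups are limited by the rule, since any overlap with MES Mel18 or Cbx2 removes a region.

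A few regions lay at the edge of the rule. The member with the smallest gap, chr5:148705399-148706682, was 14 bp from a MES Mel18 peak that was itself at percentile 1.19 of its list. A second, chr5:137730147-137731061, was 29 bp from a Cbx2 peak, and another, chr18:35020576-35021639, was 61 bp from a MES Mel18 peak. Just outside the rule, chr2:181651870-181654017 was left out only for 17 bp shared between an ESC Mel18 and a Cbx2 peak. At chr18:72508215-72511151, also left out, an ESC and a MES Mel18 peak shared 6 bp. Ring1b and RYBP peaks there met both Mel18 peaks as well, so the region did not depend on those 6 bp. Likewise at chr16:26104284-26106433 an ESC and a MES Mel18 peak shared 17 bp, and a RYBP peak met both. Of 2590 regions with ESC Mel18 and Ring1b or RYBP that were left out for a MES Mel18 or Cbx2 peak, 8 shared 0 bases between that peak and the ESC Mel18 peak, and were joined through other peaks.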

How the data were processed

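Peak lists of 5 ChIP-seq samples were used, with 1 list per antibody and cell state. Coordinates are those of mm9, and the tools named, without versions, were Bowtie and TopHat, per the submitters' processing notes. The lists carry MACS names, per the peak names in the deposited files. Caller version, settings, control, read depth and any pooling of replicates are not given in the sources used here. Scores deposited by the authors ran from 50 up, and in 4 of 5 lists values piled up at 3100. Their scale is unknown, so they only ranked peaks within a list. The headers of the MES Mel18 and Ring1b lists carry one prefix and those of Cbx2 and RYBP another, and what it marks is not given. This could not be set apart from the antibody.

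Starts were shifted to count from 1. Peaks overlapping by at least 1 bp were merged with Python 3.11.15 and numpy 2.4.6, which was tested on simulated data and checked against bedtools 2.31.1. Shares have Clopper-Pearson intervals (scipy 1.17.1) and medians have binomial order-statistic intervals, both at 95%. The regions named were the 5 of each group with the highest ESC Mel18 score outside runs, those with extreme width, the run, and those at the edge of the rule. The members and lists were chosen with earlier results of these data known. Alternatives were an overlap of 50% of the shorter peak, joining within 1 kb, the upper 50% of peaks by score, the sex chromosomes and start of chromosome 9 included, and the run left out. Sequences and genes were not assigned, since no mm9 reference was used. Plots were drawn with matplotlib 3.10.9.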

Additional observations from a re-analysis of the deposited data

How the results depend on the processing

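No paired analysis was possible because all groups consisted of 1 sample. Of 48 alternative values, 27 stayed within the interval of the reported one or, for the count of members, within 1.5 times. For the share of ESC Mel18 bases, the interval counted every base as independent and was very narrow (84.3 to 84.4). All alternatives of that share fell outside it, so this tally says little about how stable the share was. With the upper 50% of each list by score, members numbered 619, both proteins were at 49.4%, Ring1b alone at 24.9% and RYBP alone at 25.7%, and the median width was 2153 bp. That setting also drops the lower-scoring MES Mel18 and Cbx2 peaks. A region holding such a peak could therefore count as a member, against the rule of the main set. With the upper 50% of ESC Mel18, Ring1b and RYBP against the full MES Mel18 and Cbx2 lists, members numbered 223, the shares were 39.5, 16.6 and 43.9%, and the median width was 2161 bp. The division into groups thus depended on the score threshold, and both settings leave 0% in the lowest ESC quartile by construction. The share within 5 kb of MES Mel18 or Cbx2 was 5.98% with 50% overlap required, 2.28% with peaks within 1 kb joined, and 65.1% with the upper 50% of each list, where distances to the full lists were measured. The share of ESC Mel18 bases under Ring1b or RYBP was 85.2% with 50% overlap, 81.4% with joining, 83.1 and 82.0% with the score thresholds, 84.1% with the sex chromosomes and the start of chromosome 9, and 84.8% without the run. Depth was unknown, so weak and absent peaks cannot be told apart.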
